A study of Mus musculus with 2 samples.

Results

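The genes described here encode the calcitonin peptides of the gut and the receptor that reads them: the peptide genes Calca, Calcb and Adm, the receptor gene Calcrl, and the receptor partner genes Ramp1, Ramp2 and Ramp3. They are 7 of the 33083 genes listed for both libraries, taken by symbol, and 6 of the 7 had at least 1 unique molecular identifier (UMI, 1 counted RNA molecule) in the kept cells. The set was chosen by family, and selected on the measured UMI levels of these libraries, where Calca differed between the genotypes, so levels and ratios are given as descriptions and none is tested.

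The data are droplet single-cell RNA sequencing of mouse colon, with 1 library from the transgenic Alzheimer's disease model (AD, named APP/PS1-21 in the design text) and 1 library from wild-type mice (WT). Minced colon was dissociated with trypsin and DNase I, and red cells were lysed. How many animals went into a library, and their age and sex, are not given in the sources used here, and neither are treatments. The design text names colonic epithelium, yet both libraries also held connective tissue, vessel and immune cells.

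Calca gives calcitonin or, by alternative splicing, the calcitonin gene-related peptide CGRP, and Calcb gives a second CGRP. Calcrl is a G protein-coupled receptor that reaches the cell surface only with a partner of the RAMP family. With Ramp1 it forms the CGRP receptor, and with Ramp2 or Ramp3 it forms receptors for adrenomedullin, the peptide of Adm. These receptors raise cyclic AMP (cAMP). In the gut CGRP is best known as a peptide of sensory and enteric neurons and adrenomedullin as a signal to vessels, and CGRP has been found to act on innate lymphoid cells in mice.

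After filtering, 4687 AD and 1546 WT cells were kept, with medians of 3720 and 3714.5 UMIs per cell. A mitochondrial share above the limit of 25% removed 29.2% of AD and 60.4% of WT barcodes, and 7 barcode sequences occurred in both libraries. Joint clustering without the 7 genes gave 26 clusters in 17 classes named from marker genes. With 1 library per genotype there is no replicate check: every difference below is between these libraries, and the 95% intervals cover counting error only. Levels are counts per 1000000 UMIs of the cells summed (CPM). Each gene's level is compared between classes and libraries, never with the level of another gene.

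Over all kept cells, Calca and Ramp1 were higher in the AD library, Calcrl and Ramp2 were lower, and Ramp3 was about level. Calca stood at 4.79 CPM (4.06 to 5.61) in AD cells and 0.567 CPM (0.228 to 1.17) in WT cells, a ratio of 8.46 (4.01 to 21.4). Ramp1 stood at 80.7 and 54.0 CPM, a ratio of 1.5 (1.37 to 1.63). Calcrl stood at 24.9 CPM in AD and 43.3 CPM in WT cells, a ratio of 0.576 (0.515 to 0.643). Ramp2, the main vessel partner gene, stood at 16.1 CPM in AD and 32.2 CPM in WT cells, a ratio of 0.501 (0.438 to 0.572). Both genes were highest in endothelial-like cells, which were 2.11% of AD and 6.40% of WT kept cells. The part of this mix in the ratios was not tested. Ramp3 stood at 6.70 and 6.15 CPM, a ratio of 1.09 (0.835 to 1.43), whose interval spans 1. Of the 5 genes with at least 20 UMIs over both libraries, 1 was at least 2-fold higher in AD (Calca) and 0 at least 2-fold lower, beside 4.64% and 5.79% of the 17581 genes that reached 20 UMIs (10.4% either way). These all-cell ratios moved by over 1.5 times with the mitochondrial limit: with a limit of 10%, the log2 ratio of Calca was 1.17, beside 2.98 as reported, and that of Ramp3 -0.52, beside 0.12. With no limit it was 0.87 for Ramp3, -0.05 for Calcrl, beside -0.80, -0.30 for Ramp2, beside -1.0, and 1.21 for Ramp1, beside 0.58.

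**Figure D1:**
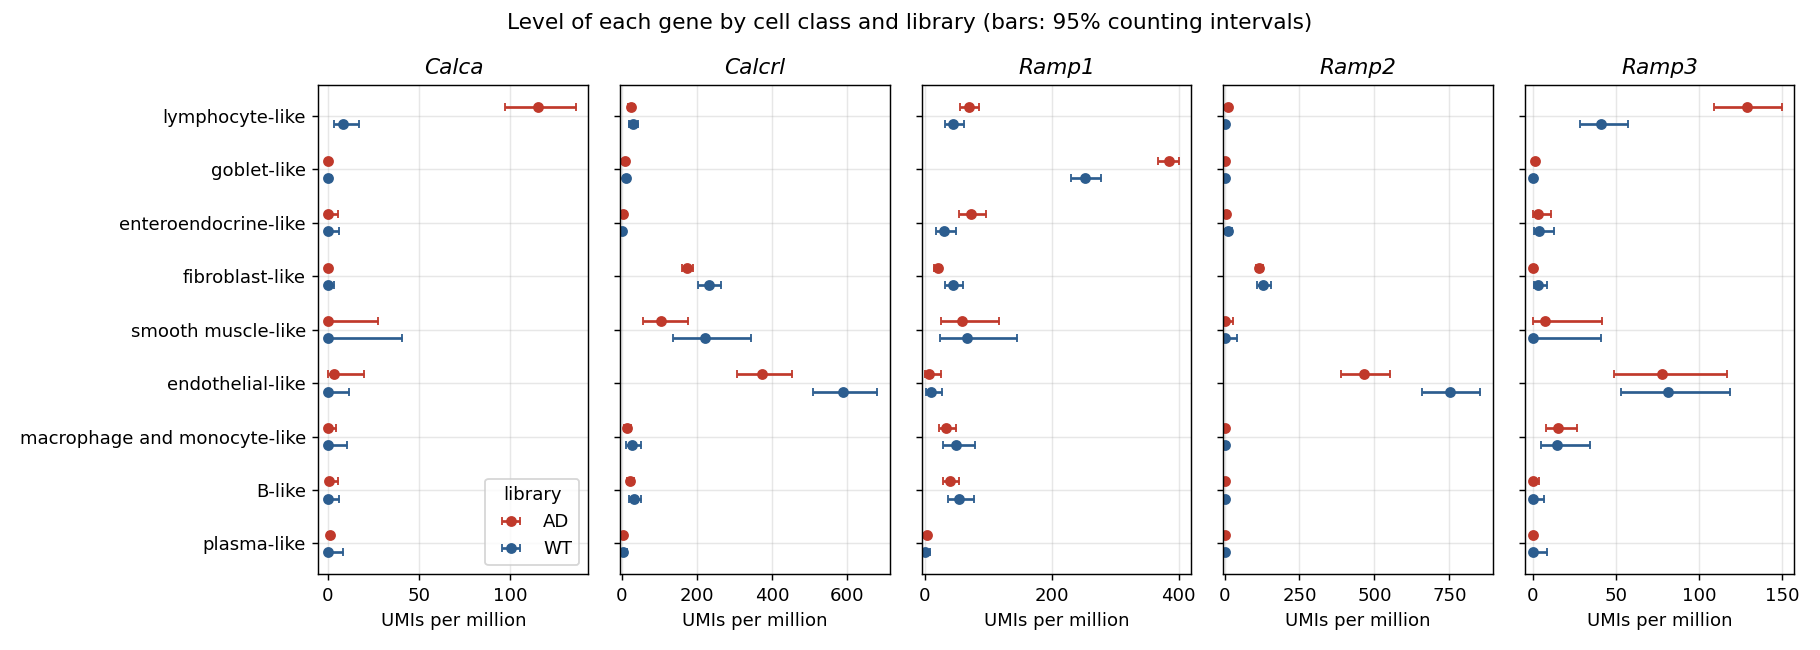
Level of 5 genes in 9 cell classes, as CPM on the x axis, with the AD library drawn above the WT library and bars for 95% counting intervals. Calca stands out in lymphocyte-like cells of the AD library at 115 CPM, Ramp1 in goblet-like cells of both libraries, and Calcrl and Ramp2 in endothelial-like and fibroblast-like cells.

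Calca, the CGRP and calcitonin gene, was a lymphocyte gene in these libraries. Lymphocyte-like cells (T, natural killer and innate lymphoid cells) held 140 of 153 Calca UMIs in the AD library and 7 of 7 in the WT library. Their level was 115 CPM (97.1 to 136) in AD and 8.39 CPM (3.38 to 17.3) in WT cells, a ratio of 13.8 (6.50 to 34.8). A Calca UMI was found in 23 of 506 AD and 3 of 244 WT lymphocyte-like cells. The matching counts in B-like cells, which give the background of free RNA, were 1 of 471 AD cells and 0 of 225 WT cells, which allows up to 1.33% in WT. Median depths were 2095 UMIs in AD and 3169 UMIs in WT lymphocyte-like cells, against 1976 and 2518 UMIs in B-like cells.

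Within the lymphocyte-like cells, Calca lay almost wholly in 1 small cluster of 54 AD and 6 WT cells. The cluster was led by Il13, Il17a and Il5, and 11 of 20 innate lymphoid markers defined it, so it is called innate lymphoid-like. Its Calca level was 924 CPM (774 to 1093) in AD and 168 CPM (67.6 to 347) in WT cells, a ratio of 5.49 (2.59 to 13.9). Calca was detected in 20 of the 54 AD cells and 3 of the 6 WT cells. Thinned to 1000 UMIs, the shares of cells with Calca were 28.0% in AD and 14.5% in WT, a log2 ratio of 0.95, beside 2.36 for the level. The other 690 lymphocyte-like cells held 5 Calca UMIs in 3 cells, all from the AD library. The ratio over all lymphocyte-like cells therefore carries both the level inside the cluster and the number of its cells in each library.

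Few cells carried most of the Calca signal. In the AD library, 30 cells held a Calca UMI, 15 of them exactly 1, and the highest cell alone held 44, or 28.8% of the total. The highest 5 AD cells held 67.3%. In the WT library the 3 positive cells held 4, 2 and 1 UMIs. Without the highest cell of each library the log2 ratio in lymphocyte-like cells was 4.25, beside 3.69 with them, and under a mitochondrial limit of 10% it was 2.72. Among AD cells outside the lymphocyte-like class, 1 plasma-like cell held 7 Calca UMIs, and no other held more than 1.

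**Figure D2:**
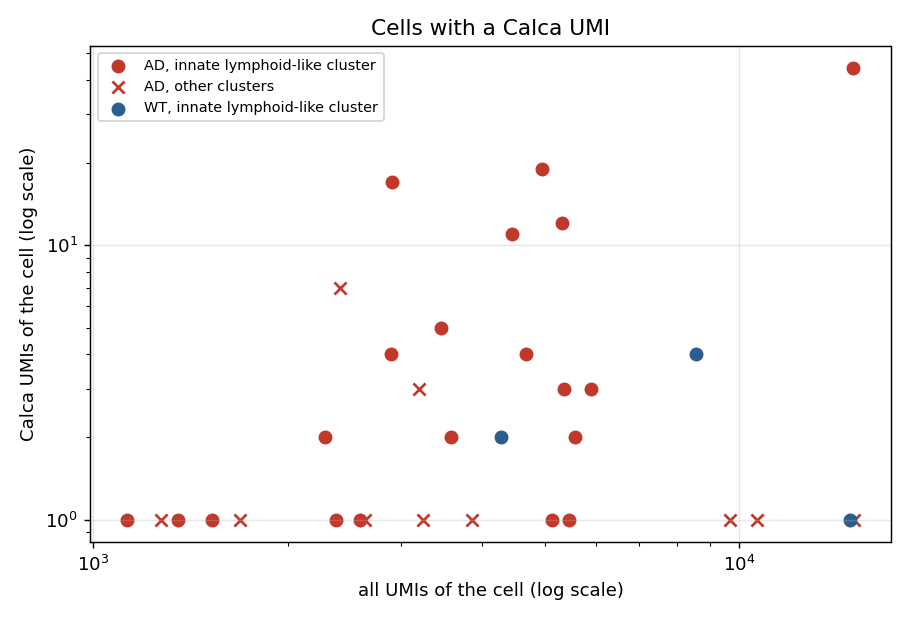
Every kept cell with a Calca UMI, with all UMIs of the cell on the x axis and its Calca UMIs on the y axis, both log scales, AD cells red, WT cells blue, circles for the innate lymphoid-like cluster and crosses for other clusters. The highest AD cell holds 44 Calca UMIs, and the 3 WT cells hold 1 to 4, all in the innate lymphoid-like cluster.

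The Calca cells of the innate lymphoid-like cluster carried genes of type 2 and type 17 cytokines. Of these 23 cells, 16 held Il17a, 12 held Il5, 12 held Il17f and 9 held Il13, beside 10, 5, 7 and 8 of the 37 cells without Calca. Those cytokine genes recruit neutrophils (Il17a and Il17f), sustain eosinophils (Il5) and drive mucus secretion (Il13). Gata3, a master regulator of type 2 lymphocytes, was detected in 21 of the 23 cells with Calca and 31 of the 37 without, and Rora in 22 and 32. Nmur1, the neuromedin U receptor of type 2 innate lymphoid cells in mice, was detected in 5 and 0. Other type 2 markers were missing: Ptgdr2, a prostaglandin receptor gene, was at 0 in all 60 cells, and Il17rb, the interleukin-25 receptor gene, was found in 0 and 1. Klrg1 was detected in 7 and 12 cells, Il1rl1 in 5 and 9 and Areg in 8 and 12. Il4 ran the other way, with 5 of 23 and 15 of 37 cells.

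Depth differed between these cells, with medians of 4453 UMIs in cells with Calca and 1716 UMIs in cells without. On the CPM scale, Il17a stood at 4063 and 982, Il5 at 256 and 67.3, Il13 at 405 and 148, and Gata3 at 1569 and 1709. Il17a and Il5 are among the genes that define the cluster, so these values describe it. Il22, a cytokine gene that acts on epithelium, was listed at 0 in all 60 cells. T cell markers were present in some of these cells. The T cell receptor complex genes Cd3e, Cd3d and Cd3g were detected in 4, 6 and 7 of the 23 cells with Calca and 3, 5 and 8 of the 37 without, against 323, 341 and 326 of the 690 other lymphocyte-like cells. The co-stimulatory receptor gene Cd28 was detected in 11 of 23 cells with Calca and 13 of 37 without, against 304 of the 690. Lck was detected in 2 and 4 cells, Cd5 in 1 and 0, and Cd4 in 3 and 0, and Cd8a and Cd8b1 were at 0 in all 60. Of 8 natural killer genes, Prf1 had 1 UMI in these 60 cells and the other 7 had none.

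The RefSeq promoter of Calca is shown because its gene differed most between the libraries, and that of Ramp1 because it is the CGRP partner. RefSeq promoters were at hand for 5 of the 7 genes (Calca, Adm, Calcrl, Ramp1 and Ramp3) and not for Calcb and Ramp2. Each runs from 250 bases before to 50 bases after the start site, 5′ to 3′ on the gene's strand, in GRCm38.p6. The first is chr7:114636308-114636607 on the minus strand and the second chr1:91179572-91179871 on the plus strand. Capitals mark the core of the cAMP response element, TGACG, searched on both strands (CGTCA is its complement).
Calca: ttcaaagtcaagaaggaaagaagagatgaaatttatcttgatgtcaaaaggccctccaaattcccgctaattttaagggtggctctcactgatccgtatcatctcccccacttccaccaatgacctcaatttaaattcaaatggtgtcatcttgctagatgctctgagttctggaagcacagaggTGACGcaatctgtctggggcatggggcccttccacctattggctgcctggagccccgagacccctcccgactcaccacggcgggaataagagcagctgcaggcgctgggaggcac
Ramp1: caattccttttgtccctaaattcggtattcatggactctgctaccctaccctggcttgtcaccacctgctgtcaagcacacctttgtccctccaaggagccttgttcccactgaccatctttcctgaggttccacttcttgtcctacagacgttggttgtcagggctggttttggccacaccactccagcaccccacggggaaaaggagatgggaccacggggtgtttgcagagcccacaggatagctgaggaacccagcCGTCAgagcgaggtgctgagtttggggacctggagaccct
The core lies at base -65 from the start in Calca and at base 11 in Ramp1, and not in the windows of Adm, Calcrl and Ramp3. It occurs in 20.8% of the 32851 RefSeq promoters. The Calca window also holds 1 GATA motif (AGATAA or TGATAA, both strands) at base -218, which occurs in 18.6% of promoters. A match of letters is a description of the window and says nothing of a factor's binding.

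The other peptide genes were listed at or near 0. Calcb, the second CGRP gene, had 2 UMIs in the AD library, 1 in each of 2 cells, and 0 in the WT library, which allows up to 0.243 CPM there. Adm had no UMI in any kept cell of either library, and none in the barcodes that were filtered out. In the GENCODE annotation of GRCm38, Adm lies under the antisense gene Gm28863, which held 33 UMIs over both libraries. Whether reads from the shared bases were left uncounted is not known, so the 0 of Adm sets no upper limit on its expression. Enteroendocrine-like cells, the hormone cells of the gut, held no UMI of the 3 peptide genes in 75 AD and 61 WT cells, which for Calca and Calcb allows a UMI in up to 4.0% and 4.92% of cells. The 60 AD and 5 WT cells of the unnamed clusters held none either, and 1 of those clusters was led by the neuronal genes Nos1, Syt1 and Myt1l.

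Calcrl, the receptor gene, was highest in endothelial-like cells, then in fibroblast-like and smooth muscle-like cells. In endothelial-like cells it stood at 374 CPM (306 to 452) in AD and 589 CPM (508 to 680) in WT cells, a ratio of 0.634 (0.495 to 0.809). The fibroblast-like level was 174 CPM (159 to 190) in AD and 233 CPM (204 to 265) in WT cells, a ratio of 0.747 (0.639 to 0.876). Smooth muscle-like cells had 104 CPM (56.9 to 175) in AD and 222 CPM (136 to 343) in WT cells, a ratio of 0.468 (0.219 to 0.975). The last 2 classes did not differ from each other beyond their intervals in either library, while the endothelial-like level lay above both. Calcrl was thus lower in the AD library in each of the 3 classes.

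By cells, Calcrl was detected in 33.2% of 789 AD and 47.5% of 236 WT fibroblast-like cells, at median depths of 3021 and 3804 UMIs. B-like cells, set beside them, had 4.25% in AD and 5.78% in WT, at 1976 and 2518 UMIs. They give no floor for Calcrl: over both libraries the larger plasma-like cluster had 1.89%, at a median of 7777.5 UMIs. Thinned to 1000 UMIs per cell, fibroblast-like shares were 13.5% of 689 AD and 18.8% of 209 WT cells deep enough, and B-like shares 2.25% and 2.90%. Lymphocyte-like shares of 5.14% in AD and 5.33% in WT were close to those of B-like cells.

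The endothelial-like difference was uneven between vessel types. In the blood endothelial cluster, led by Fabp4 and Flt1, Calcrl stood at 448 CPM (363 to 548) in AD and 540 CPM (458 to 633) in WT cells, a ratio of 0.830 (0.635 to 1.08). In the lymphatic endothelial cluster, marked by Lyve1 and Flt4, it stood at 154 CPM in 20 AD cells and 938 CPM in 12 WT cells, a ratio of 0.164 (0.0753 to 0.328). These levels rested on 11 UMIs in 3 AD cells and 37 UMIs in 7 WT cells. This lymphatic cluster also led with Spp1, Lcn2 and Obp2b, and epithelial markers summed to 3556 CPM there, against 491 CPM in the blood cluster. Without it, the log2 ratio of Calcrl in endothelial-like cells was -0.27, beside -0.65 with it. The part of these epithelial transcripts in the lymphatic value was not tested.

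Among fibroblast-like cells, all 3 clusters had Calcrl. The cluster led by Pcolce2, Gdf10 and Pi16, marks of adventitial fibroblasts, stood at 126 CPM in AD and 138 CPM in WT cells, a ratio of 0.909 (0.684 to 1.22). The cluster led by Cxcl13 and Grem1 stood at 226 and 331 CPM, a ratio of 0.681 (0.555 to 0.839). In the third, led by Cxcl14 with Pdgfra and Wnt5a, the level was 200 CPM in AD and 276 CPM in WT cells, a ratio of 0.724 (0.431 to 1.24). The interval excluded 1 in the Cxcl13 cluster alone.

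Ramp1, which turns Calcrl into the CGRP receptor, was above all a goblet cell gene. Goblet-like cells held 86.5% of Ramp1 UMIs in the AD library and 73.5% in the WT library. Their level was 384 CPM (368 to 400) in AD and 253 CPM (231 to 277) in WT cells, a ratio of 1.52 (1.37 to 1.68). A Ramp1 UMI was detected in 78.6% of 481 AD and 79.0% of 105 WT goblet-like cells, at medians of 9622 and 13168 UMIs. Plasma-like cells, set beside them, had 2.51% of 956 AD and 0 of 49 WT cells, at 6262 and 7974 UMIs. B-like cells had 4.45% over both libraries, at a median of 2086 UMIs. Thinned to 1000 UMIs, goblet-like shares were 33.1% in AD and 23.3% in WT. Thus the share of goblet-like cells with Ramp1 was alike at full depth and higher in AD at equal depth.

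Ramp1 did not reach 2-fold within goblet-like cells, and neither did Calcrl, so 0 of the 2 genes with 20 UMIs there were past it, beside 3.92% of genes at least 2-fold higher and 4.68% at least 2-fold lower (8.61% either way). Over all epithelial-like cells the Ramp1 ratio was larger, with 129 CPM in AD and 60.1 CPM in WT cells, a ratio of 2.14 (1.94 to 2.36). Goblet-like cells were 481 of the 1549 AD and 105 of the 560 WT epithelial-like cells. Of the 4 genes with 20 UMIs over all epithelial-like cells, 3 differed by at least 2-fold (Ramp1 and Ramp3 higher, Ramp2 lower), beside 3.59% of genes higher and 6.06% lower (9.64% either way). Ramp3 and Ramp2 rested there on 19 and 10 UMIs in AD cells and 3 and 13 UMIs in WT cells.

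Enteroendocrine-like cells also held Ramp1, at 73.0 CPM (53.8 to 96.8) in AD and 31.1 CPM (18.4 to 49.2) in WT cells, a ratio of 2.35 (1.34 to 4.28). It was their only gene of the 7 with 20 UMIs, and it was at least 2-fold higher, beside 4.60% of genes higher and 6.24% lower in that class (10.8% either way). A Ramp1 UMI was found in 15 of 75 AD and 9 of 61 WT enteroendocrine-like cells. Muc2, the main goblet mucin, had 1859 UMIs in the AD and 57 UMIs in the WT cells of this class, or 25.8 and 316 Ramp1 UMIs per 1000 Muc2 UMIs. Goblet-like cells had 21.3 in AD and 14.3 in WT, so the AD enteroendocrine-like value was close to the goblet-like one. The part of goblet RNA in this ratio was not tested.

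Outside the epithelium, Ramp1 levels were below the goblet-like level in both libraries. B-like cells had 39.9 CPM in AD and 54.8 CPM in WT, smooth muscle-like cells 59.5 and 66.7 CPM, and enteric glia-like cells 0 CPM in 3 AD cells and 95.7 CPM in 36 WT cells. These WT values lay above the enteroendocrine-like 31.1 CPM. Lymphocyte-like cells had 69.3 CPM in AD and 44.4 CPM in WT cells, a ratio of 1.56 (1.05 to 2.36). Their clusters went opposite ways: the cluster led by Il10 and Foxp3, with regulatory T cell genes, had 92.8 CPM in AD and 158 CPM in WT cells, a ratio of 0.586 (0.350 to 1.00). The cluster led by Ccl5 and Klrd1, with CD8 and natural killer genes, had 54.3 and 20.3 CPM, a ratio of 2.68 (1.36 to 5.57). Ramp1 UMIs per 1000 Muc2 UMIs were 140 in AD and 597 in WT lymphocyte-like cells, 86.4 and 500 in B-like cells, and 93.1 and 680 in macrophage and monocyte-like cells. All were far above the goblet-like 21.3 and 14.3. Plasma-like cells had 9.78 in AD cells and 0 in WT cells.

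Fibroblast-like Ramp1 ran against the goblet-like direction, with 20.2 CPM (15.4 to 26.0) in AD and 44.8 CPM (32.7 to 60.0) in WT cells, a ratio of 0.451 (0.301 to 0.679). Of the 3 genes with 20 UMIs in fibroblast-like cells, Ramp1 was the 1 past 2-fold, beside 2.80% of genes at least 2-fold lower and 6.12% at least 2-fold higher (8.91% either way). Most lay in the Pi16 cluster, at 33.8 CPM in AD and 84.6 CPM in WT cells, a ratio of 0.399 (0.259 to 0.619). The Cxcl13 cluster had 7 Ramp1 UMIs in AD and 0 in WT cells.

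Ramp2, the partner that gives Calcrl its adrenomedullin specificity and is needed for vessel formation in mice, was highest in endothelial-like cells. There it stood at 466 CPM (390 to 552) in AD and 751 CPM (660 to 853) in WT cells, a ratio of 0.620 (0.497 to 0.769). Ramp2 was detected in 53.5% of 99 AD and 70.7% of 99 WT endothelial-like cells, at medians of 2388 and 2531 UMIs. Goblet-like cells, deeper by far, had a UMI in 1 of 481 AD cells and 0 of 105 WT cells, which allows up to 2.86% in WT. Among the 3 genes with 20 UMIs in endothelial-like cells (Calcrl, Ramp2 and Ramp3), 0 were past 2-fold, beside 6.51% of genes at least 2-fold higher and 5.95% at least 2-fold lower (12.5% either way).

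In the blood endothelial cluster alone Ramp2 stood at 557 CPM in AD and 757 CPM in WT cells, a ratio of 0.736 (0.582 to 0.925). The lymphatic cluster had 195 CPM in AD and 710 CPM in WT cells, a ratio of 0.275 (0.134 to 0.540). Both vessel types were thus lower in the AD library. The part of the epithelial transcripts noted above was again not tested.

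Fibroblast-like Ramp2 was about level, with 116 CPM (104 to 129) in AD and 129 CPM (108 to 154) in WT cells, a ratio of 0.898 (0.732 to 1.11). Its clusters differed from each other. The Pi16 cluster had 71.6 CPM in AD and 136 CPM in WT cells, a ratio of 0.526 (0.383 to 0.726). In the Cxcl13 cluster the values were 169 and 143 CPM, a ratio of 1.18 (0.885 to 1.59), and in the Cxcl14 cluster 105 and 31.9 CPM, a ratio of 3.30 (0.984 to 17.3), with 3 UMIs in WT cells. These ratios were not tested against each other.

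The mix of cells also differed between the libraries, and its part in the all-cell ratios was not tested. Endothelial-like cells were 2.11% of AD and 6.40% of WT kept cells, and they held 25.6% of the Ramp2 UMIs in AD and 60.6% in WT. For Calcrl those shares were 13.3% and 35.3%. Smooth muscle-like cells had no Ramp2 UMI in 48 AD and 20 WT cells, which allows up to 6.25% and 15% of cells. Lymphocyte-like cells had 16 Ramp2 UMIs, all in 2 AD cells. In the GENCODE annotation Ramp2 shares bases on its own strand with Vps25, which was listed at 0, so how reads from the shared bases were counted is not known.

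Ramp3, the partner that pairs Calcrl with adrenomedullin and sends the receptor to recycle, was mainly a lymphocyte and endothelial gene. Lymphocyte-like cells had 129 CPM (109 to 150) in AD and 40.8 CPM (28.2 to 57.0) in WT cells, a ratio of 3.15 (2.17 to 4.72). Endothelial-like cells had 77.6 CPM (48.6 to 117) and 81.1 CPM (53.0 to 119), a ratio of 0.957 (0.517 to 1.76). The lymphocyte-like value was thus the higher of the pair in AD and the lower in WT, though the intervals of the pair overlapped in both libraries. A Ramp3 UMI was found in 16.4% of AD and 9.84% of WT lymphocyte-like cells, and in 0 of 471 AD and 0 of 225 WT B-like cells, which allows up to 0.637% and 1.33%. Thinned to 1000 UMIs, the lymphocyte-like shares were 10.0% and 4.56%.

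By level, each lymphocyte-like cluster was higher for Ramp3 in the AD library. The Il10 and Foxp3 cluster stood at 234 CPM (193 to 281) in AD and 139 CPM (85.8 to 212) in WT cells, a ratio of 1.69 (1.05 to 2.83), though the share of cells with a UMI was close, at 58 of 214 AD and 14 of 48 WT cells. The Ccl5 and Klrd1 cluster stood at 40.3 and 18.7 CPM, a ratio of 2.15 (1.03 to 4.75). In the innate lymphoid-like cluster there were 17 UMIs in AD and 1 UMI in WT cells, a ratio of 4.84 (0.758 to 202). The first cluster, whose level was highest, held 214 of the 506 AD and 48 of the 244 WT lymphocyte-like cells. Of the 4 genes with 20 UMIs in lymphocyte-like cells, 2 (Calca and Ramp3) were at least 2-fold higher in AD, beside 7.81% of the 8068 genes there, and 0 were at least 2-fold lower, beside 3.43% (11.2% either way).

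**Figure D3:**
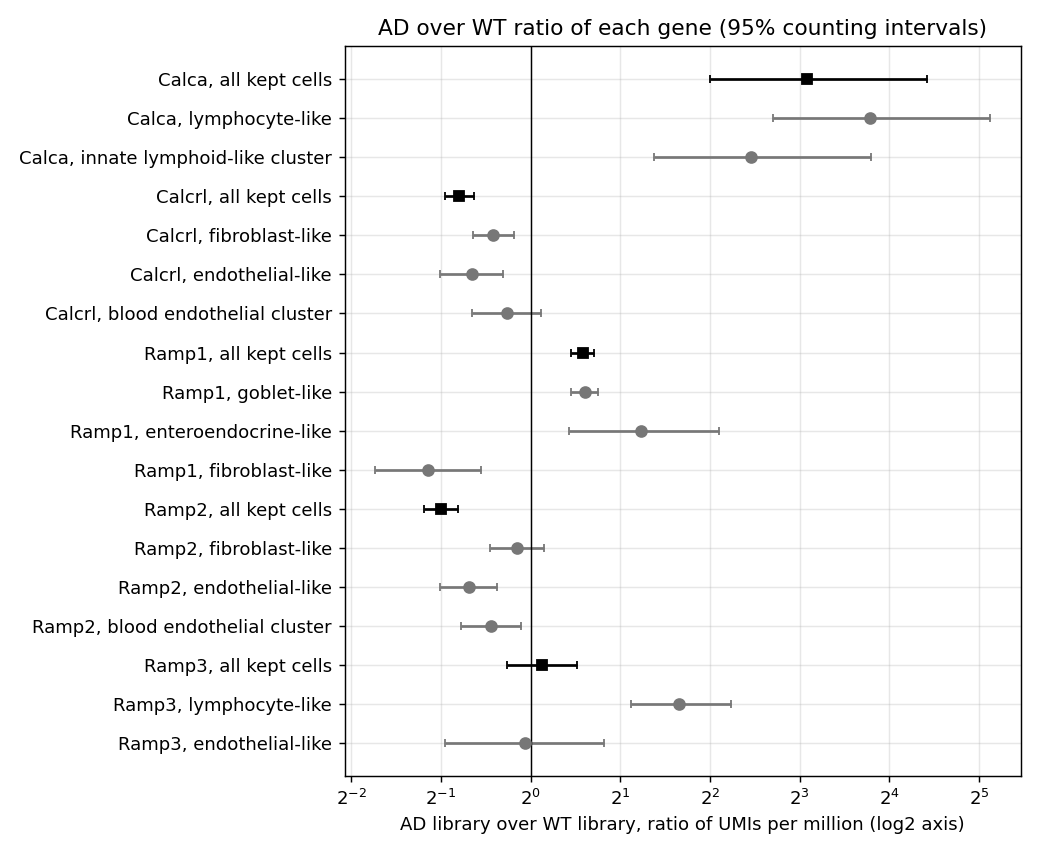
Ratio of AD over WT library in CPM, on a log2 axis, for 5 genes over all kept cells (squares) and in the classes or clusters that hold them (circles), with 95% counting intervals. Calca and lymphocyte-like Ramp3 lie right of 1 at 13.8 and 3.15, endothelial-like Calcrl and Ramp2 lie left of 1 at 0.634 and 0.620, and Ramp1 lies right of 1 in goblet-like and left of 1 in fibroblast-like cells.

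Calcrl and its partners were compared within single cells, since both parts are needed for a receptor. In endothelial-like cells, 31 of 39 AD and 50 of 62 WT cells with a Calcrl UMI also had Ramp2 (79.5% and 80.6%). Of endothelial-like cells without Calcrl, 22 of 60 AD and 20 of 37 WT cells had Ramp2 (36.7% and 54.1%). The cells with Calcrl were deeper, at medians of 3248 AD and 3132.5 WT UMIs, against 1963.5 and 1493. Ramp2 was the usual partner in vessels, and Ramp3 was found in 9 of the 39 AD and 12 of the 62 WT cells with Calcrl. Ramp1 was found in 1 of each.

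Fibroblast-like cells with Calcrl had Ramp2 in 110 of 262 AD and 42 of 112 WT cells (42.0% and 37.5%), and cells without it in 112 of 527 and 34 of 124 (21.3% and 27.4%). Medians there were 5038.5 AD and 5662.5 WT UMIs with Calcrl, and 2239 and 2515 UMIs without. Ramp1 joined Calcrl in 17 of 262 AD and 8 of 112 WT fibroblast-like cells. In goblet-like cells Ramp1 was common whether or not Calcrl was found: 30 of 34 AD and 12 of 13 WT cells with Calcrl, and 348 of 447 and 71 of 92 without. Calcrl itself was sparse in goblet-like cells, at 7.40 CPM in AD and 10.9 CPM in WT cells, against 21.0 and 31.8 CPM in B-like cells. By CPM its level in the class with most Ramp1 was thus below that in B-like cells. By cells the order was reversed: over both libraries Calcrl was detected in 8.02% of goblet-like and 4.74% of B-like cells. Median depths there were 9755.5 and 2086 UMIs. Colonocyte-like clusters had 1.66% and 2.03%, at medians of 11367 and 14466 UMIs.

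In smooth muscle-like cells, whose Calcrl cells numbered 10 in each library, Ramp1 was found in 1 AD and 4 WT cells, and Ramp2 and Ramp3 in none. Among lymphocyte-like cells with Calcrl, Ramp3 was found in 3 of 26 AD and 2 of 13 WT cells, and Ramp1 in 3 and 0. The innate lymphoid-like cluster that held Calca had 3 Calcrl UMIs in AD and 2 in WT cells, and 7 and 0 Ramp1 UMIs. Both the peptide gene and the CGRP receptor genes in 1 cluster were thus seen only at a few UMIs on the receptor side.

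**Figure D4:**
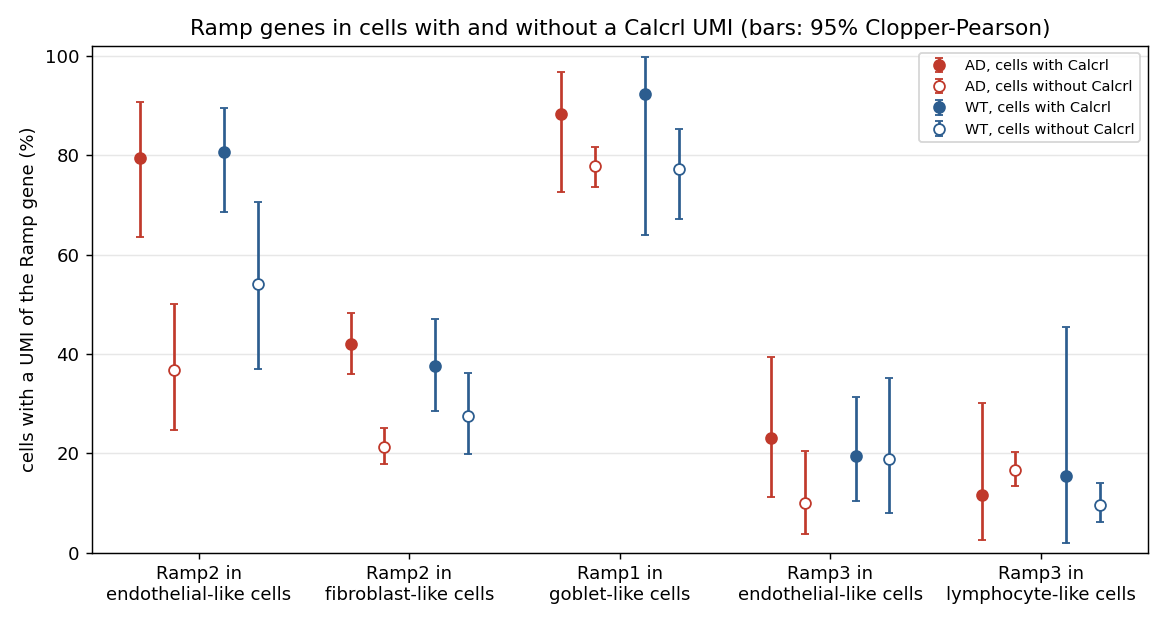
Percent of cells with a UMI of the named Ramp gene, among cells with Calcrl (filled) and without it (open), AD red and WT blue, with 95% Clopper-Pearson intervals. Ramp2 is found in 79.5% of AD and 80.6% of WT endothelial-like cells with Calcrl, the highest share for Ramp2, while goblet-like Ramp1 is above 77% in all 4 groups.

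Other genes of the family and of the pathway were read from lists. Their UMI counts come from 31937713 UMIs in AD and 12354671 UMIs in WT kept cells, so bare counts are not levels. Calcr, the calcitonin receptor, had 13 UMIs in AD and 6 in WT cells, and Iapp and Adm2, the peptides amylin and intermedin, had none. Crcp, also on the family list, had 287 and 217 UMIs, or 8.99 and 17.6 CPM, a ratio of 0.512 (0.427 to 0.613). Over all epithelial-like cells its ratio was 0.452 (0.364 to 0.562), and in fibroblast-like cells 0.846 (0.392 to 1.97). Ackr3, a scavenger receptor that takes up adrenomedullin, had 560 UMIs in AD and 172 in WT cells, 68.4% of them in fibroblast-like cells. Gpr182, a vessel receptor once assigned to adrenomedullin, had 15 and 18 UMIs, 66.7% in endothelial-like cells. Its level was 0.470 CPM in AD and 1.46 CPM in WT cells, a ratio of 0.322 (0.151 to 0.677). The part of the cell mix in these all-cell ratios was not tested.

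The genes that cut and amidate peptides were read in the Calca class. Of 10 such genes, 4 had 20 UMIs in lymphocyte-like cells, and, beside 7.81% of all genes higher and 3.43% lower, 1 was at least 2-fold higher and 0 lower in AD: Pcsk1, a prohormone convertase, at 51.9 CPM in AD and 13.2 CPM in WT cells, a ratio of 3.94 (2.06 to 8.29). Furin, a convertase of most cells, stood at 314 and 189 CPM, and Pam, the amidating enzyme, at 45.3 and 49.2 CPM. In enteroendocrine-like cells 9 of the 10 had 20 UMIs, with 1 at least 2-fold higher (Scg2) and 3 at least 2-fold lower (Pcsk1n, Chga and Chgb) in AD, beside 4.60% and 6.24% of all genes. The list's median log2 ratio was 0.43 in lymphocyte-like and -0.69 in enteroendocrine-like cells, beside 0.03 and 0.00 over all genes tested in those classes.

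Innate lymphoid genes were higher in the AD library in the class that held Calca. Of 20 in the files, 16 had 20 UMIs in lymphocyte-like cells, of which 8 were at least 2-fold higher and 0 lower in AD, beside 7.81% and 3.43% of all genes. Il17f stood at 41.2 CPM in AD and 2.40 CPM in WT cells, Il17a at 538 and 56.4 CPM, and Il13 at 39.6 and 10.8 CPM. Il1rl1, the interleukin-33 receptor, stood at 123 and 34.8 CPM. The median log2 ratio of the list was 1.00, beside 0.03 over all genes. The innate lymphoid-like cluster held 54 AD and 6 WT cells, but not all of these genes lay mainly in it. The other 690 lymphocyte-like cells held 0 Il13 and 4 Il17f UMIs, yet 133 of Il1rl1, 166 of Il23r and 126 of Il22. Of the Il1rl1 UMIs in lymphocyte-like cells, 30 of 149 in AD and 15 of 29 in WT lay in the cluster. For Il17a these counts were 520 of 653 and 14 of 47. Within that cluster, Il17a stood at 3558 CPM (3258 to 3877) in AD and 337 CPM (184 to 565) in WT cells, and Il17f at 322 CPM (236 to 428) and 24.0 CPM (0.609 to 134). The intervals of the pair overlapped for Il13, at 328 CPM (242 to 435) in AD and 216 CPM (98.9 to 411) in WT cells, and for Il1rl1, at 205 CPM (138 to 293) and 361 CPM (202 to 595). Per UMI of the cluster, both Il17 genes were thus higher in AD, and the other pair was not set apart. All 14 WT Il17a UMIs of the cluster lay in 1 cell, and the WT Il17f value was 1 UMI in 1 cell. By cells the intervals overlapped for both. Il17a was in 46.3% (32.6 to 60.4) of AD and 16.7% (0.421 to 64.1) of WT cells. Il17f was in 33.3% (21.1 to 47.5) and 16.7% (0.421 to 64.1). The genes were not tested against each other.

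Genes that respond to cAMP were read in classes that hold Calcrl or a partner gene, although Calcrl was sparse in some. In goblet-like cells it was below its B-like level by CPM, though not by share of cells, and in lymphocyte-like cells close to it. In endothelial-like cells 4 of 11 with 20 UMIs were at least 2-fold higher in AD and 0 lower, beside 6.51% and 5.95% of all genes: Rgs2, Sik1, Fosb and Nr4a1. Nr4a1, a nuclear receptor gene induced rapidly by many stimuli, stood at 501 CPM in AD and 234 CPM in WT cells, a ratio of 2.14 (1.61 to 2.87), and Fosb at 790 and 365 CPM. These genes also respond to tissue dissociation, whose part was not tested. In fibroblast-like cells, which held 64.9% of Calcrl UMIs in AD and 43.7% in WT, 0 of 13 were past 2-fold, beside 6.12% of genes higher and 2.80% lower, and Nr4a1 stood at 493 CPM in AD and 260 CPM in WT cells. In goblet-like cells 0 of 13 were past 2-fold, beside 3.92% of genes higher and 4.68% lower, with Nr4a3 closest at 21.9 CPM in AD and 10.9 CPM in WT cells (log2 ratio 0.98 with the pseudocount of 0.5). Lymphocyte-like cells had 1 of 13 at least 2-fold higher (Dusp4), close to the 7.81% of all genes there, and 0 lower, beside 3.43%, while Nr4a2 stood at 1187 CPM in AD and 2362 CPM in WT cells, a ratio of 0.503 (0.469 to 0.538).

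Of the 24 genes for the stimulatory G protein, adenylyl cyclases and receptor desensitisation, 10 had 20 UMIs in endothelial-like cells and, beside 5.95% of all genes lower and 6.51% higher, 2 were at least 2-fold lower and 0 higher in AD: Arrb1, an arrestin, at 88.2 CPM in AD and 203 CPM in WT cells, and Adcy4, an adenylyl cyclase of vessels, at 81.1 and 168 CPM. In lymphocyte-like cells 0 of 15, and in goblet-like and fibroblast-like cells 0 of 17 and 0 of 20, were past 2-fold, beside 11.2%, 8.61% and 8.91% of genes either way. Pde3b, a cAMP phosphodiesterase, stood at 269 CPM in AD and 451 CPM in WT lymphocyte-like cells.

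The genes most like each member were ranked by Pearson's r of log2(CPM + 1) over 26 points, each a class in a library with at least 20 cells. Points of 1 library share its depth and its free RNA, and the values are descriptions. Calca was closest to Il17a (r = 0.919), then Ifng, Cd40lg, Klrc1 and Cd6. The points merge all lymphocyte-like clusters, so this ranking does not place the genes in the same cells. The Ccl5 and Klrd1 cluster, also led by Ifng and Klrc1, had 0 Calca UMIs in 428 cells. Calcrl was closest to Ehd2 (0.933), then Tmtc1, Syne1, Fbxl7 and Rgs5, and Ramp2 to Prex2 (0.905), then Jam2, Fgd5, Ackr1 and Lbp. Ramp1 was closest to Golm2 (0.834), then Cxxc5, Ppp2r1b, Qsox1 and Ube4b. Ramp3 was closest to Arhgap31 (0.887), then Klk8, Prkch, Ddx60 and Arl15. With a floor of 300 UMIs in place of 100, 2 of the 5 genes stayed for Calca, 3 for Ramp2 and for Ramp3, and 5 for Calcrl and for Ramp1.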

How the data were processed

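For 1 AD and 1 WT library the authors deposited whole-number UMI counts for each gene in each barcode. Cell Ranger 3.0.1, STAR, Seurat 3.0.2 and the mm10 build are named, with no role, per the submitters' processing notes. The libraries held 38731915 and 26898149 UMIs over 6675 and 4146 barcodes, none under 500 UMIs.

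Kept cells had at least 500 UMIs, at least 200 genes and a mitochondrial share of 25% or less. Scrublet (scanpy 1.11.5, assumed rate 0.06) called 4 doublets in each library, far under the assumed rate, so doublets largely remained. The pooled cells were clustered without integration: 2000 variable genes without the 7 genes, 30 principal components, 15 neighbours, Leiden resolution 1 (leidenalg 0.10.2). To be named, a cluster needed 3 markers of the class, and 0.3 of that list, in 10% of its cells and 4-fold above other clusters. Where no such list fitted, epithelial genes alone set the class. Levels have exact Poisson, shares Clopper-Pearson and ratios exact conditional 95% intervals. Log2 ratios used a pseudocount of 0.5. A count of 0 was read as under 3 counts. Thinned shares are exact expectations at 1000 UMIs. The ratio and its interval were tested on simulated data.

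The 7 genes and all lists were chosen with earlier results of these data known. All 7 are named, with the 5 most alike genes of each with at least 100 UMIs, the 4 list genes of largest ratio per class and the innate lymphoid list in Calca cells. Goblet-like cells were added to the list comparisons after seeing the data. The files list identifiers newer than the mm10 annotation given, so the build behind the counts was not settled. Coordinates are those of the reference.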

Additional observations from a re-analysis of the deposited data

Results flagged for a closer look

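Barcodes above the mitochondrial limit, which enter no comparison above, held Ramp1 at 21.6 CPM (18.2 to 25.4, 145 UMIs in 1952 barcodes) in the AD library and 10.0 CPM (8.46 to 11.8, 143 UMIs in 2500 barcodes) in the WT library. It was the 1 gene of the 7 whose interval in AD lay wholly above that in WT in those barcodes. Calcrl stood there at 6.10 and 4.28 CPM, and Calca had 5 UMIs in AD and 1 in WT.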

How the results depend on the processing

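No paired analysis was possible because each genotype has 1 library. Of 190 log2 ratios (AD over WT) recomputed for 13 results under 15 settings, 167 lay within the interval of the value reported, 23 lay outside and 0 turned a direction whose interval excluded 0. Some of the 167 were bound to agree. Other clusterings leave every all-cell ratio unchanged, and leaving out the lymphatic cluster changes endothelial-like ratios alone. The 167 is thus no measure of stability. Over all kept cells the mitochondrial limit moved most: at 10%, Calca was 1.17, Calcrl -1.25, Ramp1 0.31, Ramp2 -1.52 and Ramp3 -0.52. At 50%, Calcrl was -0.27, Ramp1 1.00, Ramp2 -0.50 and Ramp3 0.67, and with no limit -0.05, 1.21, -0.30 and 0.87. Ramp3 over all cells thus changed sign with the limit, and its interval spanned 0 as reported. At 10%, endothelial-like Calcrl was -0.13 and Ramp2 -0.38, and goblet-like Ramp1 0.30. As a mean over cells, Calcrl was -0.99 and Ramp1 0.44 over all cells and 0.42 in goblet-like cells. Divided by the median ratio, Ramp1 over all cells was 0.73. With at least 1000 UMIs and 500 genes, fibroblast-like Ramp2 was 0.20. Thinned, Calca in the innate lymphoid-like cluster was 0.95. Without the lymphatic cluster, a setting chosen after seeing the data, endothelial-like Calcrl was -0.27. The cause was not tested. Calca in lymphocyte-like cells ranged from 2.72 to 4.25, Ramp3 there from 1.14 to 1.94 and fibroblast-like Calcrl from -0.48 to -0.28. Depth limits Calcb and the WT innate lymphoid-like cells, which number 6.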
